A study of Mus musculus with 16 samples.

Results

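The genes of oxidative phosphorylation were followed across 4 mouse genotypes in RNA of the striatum. Members were the genes whose probe sets carry a single symbol beginning with Nduf, Sdha, Sdhb, Sdhc, Sdhd, Uqcr, Cox4, Cox5, Cox6, Cox7, Cox8 or Atp5. There were 94 of them, on 185 probe sets, among 18193 genes with such a probe set. They comprised 34 genes of complex I, 4 of complex II, 8 of complex III, 19 of complex IV, 17 of complex V and 12 assembly factors that the same symbols take in. Another 8 symbols of these families, Ndufa11 and Ndufs6 among them, lie on probe sets shared with other genes and were not analysed here.

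The 4 genotypes were R6/2 x DREAM+/-, DREAM+/-, R6/2 and wild type, all of B6xCBA strain, with 4 biological replicates and 1 array each. R6/2 mice carry exon 1 of human huntingtin with a long CAG repeat under the human huntingtin promoter, a model of Huntington's disease. DREAM knockout mice were crossed with them, so that DREAM+/- animals keep 1 intact copy of Kcnip3, the gene of the calcium-binding transcriptional repressor DREAM. Age, sex and any pooling of animals were not given in the sources used here. The labels name striatal neurons, but the RNA came from whole striatum, where fewer cells of a type and less RNA per cell cannot be told apart.

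Oxidative phosphorylation takes place in the inner membrane of mitochondria. Complexes I and II pass electrons from NADH and succinate to ubiquinone, complex III passes them on to cytochrome c, and complex IV hands them to oxygen. The proton gradient built by complexes I, III and IV drives complex V, the ATP synthase. Most subunits are encoded in the nucleus, and a few core ones by mitochondrial DNA, which the symbols used here do not cover. Neurons depend on this pathway for most of their ATP, and complex II of the striatum is a known target of toxins that injure it.

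Of the 94 genes, 91 were bright enough to be tested. Cox4i2, a form of subunit 4 found mainly in lung, and Cox7b2, a form found mainly in testis, fell under the brightness filter. So did Ndufb4, which had only 1 probe set of its own, a dim one (mean 5.53), and no level of the gene is read from it. The values are log2 probe-set levels, so a difference of 0.1 on this scale is small. A gene passed the test if limma gave it an adjusted p under 0.05, with Benjamini-Hochberg adjustment across the 13011 genes tested. Members varied little among replicates: the median standard deviation within a group was 0.0623 for members and 0.0998 for all genes tested.

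The arrays held their labels. Kcnip3 lay between 7.43 and 7.82 on the arrays of both DREAM+/- genotypes and between 9.04 and 9.89 on those of R6/2 and wild type. Medium spiny neuron markers were bright, with Penk at 12.1 to 12.6 in R6/2 x DREAM+/-, 13.1 to 13.3 in DREAM+/-, 12.3 to 12.4 in R6/2 and 13.2 to 13.3 in wild type. Of 12 such markers, 11 were lower in R6/2 against wild type and 11 in R6/2 x DREAM+/- against DREAM+/-, with medians of -0.76 and -0.69. Of 4 cortical projection neuron markers, 3 were lower in R6/2 against wild type and 3 higher in R6/2 x DREAM+/- against R6/2, and the mean of the list, less that of wild type, ran from -0.25 to 0.19 in R6/2 x DREAM+/-, -0.16 to 0.23 in DREAM+/-, -1.18 to -0.38 in R6/2 and -0.10 to 0.14 in wild type. The mean of 4 choroid plexus markers ran from 0.41 to 1.51 in R6/2 x DREAM+/-, -0.37 to 1.49 in DREAM+/-, -1.41 to 0.30 in R6/2 and -0.23 to 0.24 in wild type. Xist stood at 6.49 on R6/2 replicate 1 and between 11.04 and 12.16 on the other 15 arrays; Ndufa1 and Ndufb11 are the X-linked members. The mean of 7 astrocyte markers ran from -0.13 to 0.06 in R6/2 x DREAM+/-, 0.02 to 0.06 in DREAM+/-, -0.11 to -0.07 in R6/2 and -0.07 to 0.10 in wild type. Every R6/2 array lay below every wild-type array, but only just, with the highest R6/2 array at -0.0725 and the lowest wild-type array at -0.0711. S100b (11.36 in R6/2, 10.92 in wild type) and Slc1a3 had higher means in R6/2. Gfap, Aqp4, Slc1a2, Aldh1l1 and Gja1 had lower ones. The mean of 6 microglia markers ran from 0.05 to 0.13 in R6/2 x DREAM+/-, 0.13 to 0.16 in DREAM+/-, -0.07 to 0.04 in R6/2 and -0.18 to 0.17 in wild type, with every R6/2 x DREAM+/- array above every R6/2 array. The markers themselves were split there. Cx3cr1 (8.945 in R6/2 x DREAM+/-, 8.1975 in R6/2), Csf1r and C1qa had higher means in R6/2 x DREAM+/-. P2ry12 (9.25 in R6/2 x DREAM+/-, 9.305 in R6/2), Aif1 and Tmem119 had lower ones. The part of these differences in the results that follow was not tested.

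Averaged over the 91 genes, each less its mean in wild type, the arrays stood between -0.03 and 0.02 in R6/2 x DREAM+/-, between -0.06 and -0.01 in DREAM+/-, between 0.02 and 0.08 in R6/2 and between -0.02 and 0.02 in wild type. The 4 R6/2 arrays were thus the highest group, though by little, with the lowest of them at 0.0231 and the highest R6/2 x DREAM+/- array at 0.0213. Group means, from -0.034 in DREAM+/- to 0.052 in R6/2, differed by less than 0.1 on the log2 scale. The same average over all 13011 genes ran from -0.04 to 0.03 in R6/2 x DREAM+/-, -0.03 to -0.01 in DREAM+/-, -0.01 to 0.01 in R6/2 and -0.02 to 0.01 in wild type. Complex V averaged -0.02 ± 0.03 in R6/2 x DREAM+/-, -0.05 ± 0.02 in DREAM+/-, 0.06 ± 0.04 in R6/2 and 0.00 ± 0.01 in wild type (SD, n = 4 each). Complex I averaged -0.01 ± 0.03 in R6/2 x DREAM+/-, -0.03 ± 0.03 in DREAM+/-, 0.06 ± 0.03 in R6/2 and 0.00 ± 0.03 in wild type. Complex IV showed the smallest R6/2 mean of the 5 complexes, at 0.03 ± 0.01, against 0.00 ± 0.01 in wild type.

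**Figure D1:**
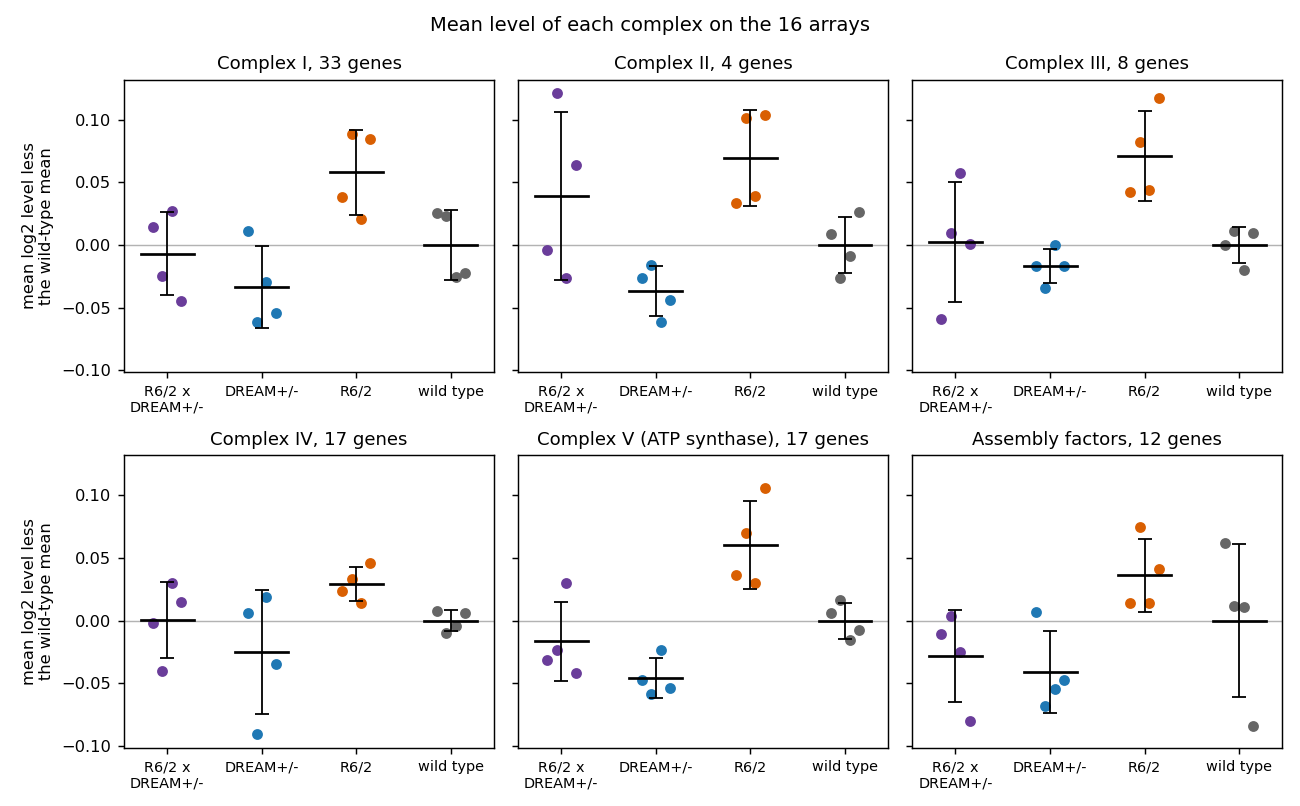
Mean log2 level of each complex on each array, less the wild-type mean of each gene (vertical axis), by genotype (horizontal axis); points are arrays, bars are means and whiskers are SD over 4 arrays. The R6/2 arrays lie above 0 in every panel, and the R6/2 x DREAM+/- arrays lie on both sides of 0 in every panel.

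Promoter sequence is shown for 4 genes whose values are given further on, 3 with a match to a site of a known respiratory chain activator and 1 without. Promoter windows of 300 bases, 250 upstream and 50 downstream of the start site, came from RefSeq (GRCm38.p6) and were found for 78 of the 94 genes. The 120 bases before the start site are printed 5′ to 3′ for the c-ring gene Atp5g2 (chr15:102671048-102671167, minus strand), the complex II flavoprotein gene Sdha (chr13:74350241-74350360, minus strand), the complex I core gene Ndufs3 (chr2:90904722-90904841, minus strand) and the Rieske protein gene Uqcrfs1 (chr13:30545317-30545436, minus strand). Capitals mark matches to the site of NRF1 in the form GCGCA, any base (N), GCGC, and to CCGGAAG, a form of the ETS site bound by GABP, which are both known activators of respiratory chain genes.
Atp5g2: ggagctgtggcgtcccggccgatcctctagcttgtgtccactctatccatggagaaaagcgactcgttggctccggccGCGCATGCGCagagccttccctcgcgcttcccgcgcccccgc
Sdha: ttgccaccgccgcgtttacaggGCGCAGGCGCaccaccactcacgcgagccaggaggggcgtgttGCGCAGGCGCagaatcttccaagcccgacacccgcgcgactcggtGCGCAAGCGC
Ndufs3: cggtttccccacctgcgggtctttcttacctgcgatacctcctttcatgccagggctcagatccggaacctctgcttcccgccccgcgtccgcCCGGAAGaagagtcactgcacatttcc
Uqcrfs1: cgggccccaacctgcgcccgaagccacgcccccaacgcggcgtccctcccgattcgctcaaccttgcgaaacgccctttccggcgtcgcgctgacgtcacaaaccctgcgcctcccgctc

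Sdha held 3 NRF1 matches, starting at positions -98, -55 and -10 from the start site, and Atp5g2 had 1 at -42. Ndufs3 had an ETS match at -27 and another, in the reverse form CTTCCGG, at position 2, past the bases printed. Uqcrfs1 held none of the motifs searched in its window, which says only that these letters are not there. Over both strands, the NRF1 form was found in 19 of the 78 windows (24.4%), against 5.19% of 27025 genes with a window. CCGGAAG was in 22 (28.2%, against 9.93%) and AAGATGGC, a form of the YY1 site, in 10 (12.8%, against 3.19%). CCGGAAG and AAGATGGC can share the letters AAG, and no motif lies within another. GTCAAGG, a form of the element that DREAM binds, was in 3 windows (3.85%), those of Cox5b, Cox7a2l and Ndufb11, against 3.65% of all genes. Among members with a window that passed, the NRF1 form was in 2 of 11 in R6/2 against wild type and in 1 of 10 in R6/2 x DREAM+/- against R6/2, and CCGGAAG in 1 of 11 and 3 of 10. A match of letters is a description and not a binding site.

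R6/2 against wild type asks what the huntingtin transgene changed. Of the 91 members, 11 passed as higher and 1 as lower (13.2%), while 25.4% of all genes passed, 13.5% as higher and 11.9% as lower. The higher members spread over every complex, 5 in complex I, 1 each in complexes II, III and IV, 2 in complex V and 1 assembly factor. The changes were small: the median over members was 0.06, against 0.03 over all genes, and 5 members (5.50%) moved by more than 0.2 either way, against 24.6% of all genes. Signs were positive for 67 members and negative for 23, and over all genes positive for 7463 and negative for 5507. After each array was shifted to a common median, 6 members passed, a count given without the share of all genes.

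Complex I, the NADH dehydrogenase, had 26 of its 33 tested genes on the positive side. In its electron input module, 1 of 7 genes passed. Ndufv1, the subunit that binds NADH and FMN, had 11.66, 11.71, 11.67 and 11.74 in R6/2, against 11.51, 11.66, 11.48 and 11.46 in wild type. The groups met at 11.66, where wild-type replicate 2 equalled the lowest R6/2 array, and the change was 0.17 ± 0.05 (SE, adjusted p = 0.0165). The other large iron-sulfur subunit of that module, Ndufs1, did not pass, with a change of 0.09 (adjusted p = 0.159).

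By the brightest probe sets, none of the 7 genes of the ubiquinone-reducing module passed, and 4 of the 19 genes of the membrane arm did. Ndufa8, an accessory subunit rich in cysteines, had 11.50, 11.57, 11.47 and 11.51 in R6/2, against 11.40, 11.38, 11.33 and 11.28 in wild type. Every R6/2 array lay above every wild-type array, with a change of 0.17 ± 0.04 (SE, adjusted p = 0.0109). Ndufa3, a small membrane subunit, had 12.77, 12.84, 12.76 and 12.80 in R6/2, against 12.62, 12.65, 12.64 and 12.67 in wild type, again without overlap (0.15, adjusted p = 0.0120). Ndufab1, which is also the acyl carrier protein of mitochondrial fatty acid synthesis, had 11.96, 12.02, 11.95 and 11.95 in R6/2, against 11.88, 11.85, 11.81 and 11.77 in wild type (0.14, adjusted p = 0.0360).

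Ndufa10, an accessory subunit of the membrane arm, had probe sets above the brightness filter that passed in opposite directions. Its brightest probe set, with a mean of 11.56, read 11.70, 11.65, 11.67 and 11.68 in R6/2, against 11.46, 11.54, 11.48 and 11.52 in wild type, and rose by 0.175 (adjusted p = 0.0169). When every probe set with 1 symbol was fitted by itself, this probe set passed with an adjusted p of 0.0326, and a dimmer one (mean 7.48) passed with -0.21 (adjusted p = 0.0464). The gene's direction in R6/2 therefore depends on the probe set. Of 48 members with at least 2 probe sets above the filter, 7 others were called on some of them only. They were Cox6a1, Ndufa3, Ndufa5, Ndufb11, Ndufs4, Ndufv1 and Sdha. Ndufs4, an accessory subunit whose loss causes Leigh syndrome in humans, differed by -0.03 on its brightest probe set, while a second one passed with -0.23 (adjusted p = 0.00316).

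Succinate dehydrogenase, complex II, had 1 of 4 genes past the test. Sdha, the flavoprotein that oxidises succinate, had 12.22, 12.22, 12.21 and 12.17 in R6/2, against 12.01, 12.09, 12.05 and 12.10 in wild type. The groups did not overlap, and the change was 0.14 ± 0.05 (SE, adjusted p = 0.0483). The probe sets of Sdha did not give the same call: fitted by probe set, the brightest missed the threshold (0.14, adjusted p = 0.0833), and a second one (mean 11.61) passed with 0.17 (adjusted p = 0.0135). Sdhb, the iron-sulfur subunit, differed by 0.04, Sdhd, a membrane anchor, by 0.09, and Sdhc, the other anchor, by 0.00, and none of them passed. Sdhaf1, which helps insert iron-sulfur clusters into Sdhb, had 8.68, 8.83, 8.56 and 8.70 in R6/2, against 8.54, 8.53, 8.35 and 8.42 in wild type, 17.5% higher (0.23, adjusted p = 0.0167).

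In complex III, cytochrome bc1, 1 of 8 genes passed. Uqcrfs1, the Rieske iron-sulfur protein that takes electrons from ubiquinol, had 11.53, 11.53, 11.53 and 11.56 in R6/2, against 11.37, 11.42, 11.34 and 11.30 in wild type. The R6/2 arrays lay within 0.03 of each other and above all of wild type, a change of 0.18 ± 0.04 (SE, adjusted p = 0.00426), or 13.3%. Uqcrc1 and Uqcrc2, the core proteins that face the matrix, differed by 0.12 (adjusted p = 0.134) and 0.06 (adjusted p = 0.435).

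Complex IV, cytochrome c oxidase, was the complex with members in both directions. None of its 10 tested general subunits passed by the brightest probe sets, where Cox7c was read on a dim one (mean 7.37). Fitted by probe set, Cox6a1 was called on some of its probe sets only. By the brightest, the nearest was Cox6b1, at 13.22, 13.28, 13.26 and 13.30 in R6/2, against 13.19, 13.18, 13.14 and 13.09 in wild type (0.12, adjusted p = 0.0510). Cox6a2, the form of subunit 6a found mainly in heart and skeletal muscle, had 7.85, 7.74, 7.91 and 8.04 in R6/2, against 8.31, 8.11, 8.13 and 8.29 in wild type. It fell without overlap, by 0.33 (95% interval -0.50 to -0.15, adjusted p = 0.00740), to 79.8% of wild type, which was the largest change of any member in this comparison. Its partner isoform Cox6a1, the general form, stood at 13.90, 13.94, 13.99 and 14.01 in R6/2, against 13.84, 13.94, 13.80 and 13.85 in wild type, and did not pass (0.10, adjusted p = 0.107). Cox6b2, a form described from testis, had 7.25, 7.55, 7.38 and 7.14 in R6/2, against 7.09, 7.09, 7.0 and 7.05 in wild type (0.27, adjusted p = 0.0347).

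The other isoforms of complex IV did not pass. Cox4i1, the general form of subunit 4, differed by 0.11 (adjusted p = 0.0856), Cox7a1, a muscle form, by 0.05 (adjusted p = 0.689), Cox7a2, its general form, by 0.02 (adjusted p = 0.783) and Cox8b, a muscle form, by -0.15 (adjusted p = 0.376). Cox5a and Cox5b, which every tissue uses, differed by -0.01 and -0.02. Ndufa4, first described in complex I and now placed in complex IV, differed by -0.02, and its paralogue Ndufa4l2 by -0.02. Markers of muscle and brown fat, where the muscle forms are known best, were examined beside Cox6a2. Of 5 tested muscle markers, Acta1 (-0.38, adjusted p = 0.00119) and Myh7 (-0.42, adjusted p = 0.00421) were lower in R6/2 against wild type, Tnnt2 was higher (0.995, adjusted p = 6.81e-06), and Ckm and Mb did not pass. Acta1 and Myh7 were lower and Tnnt2 higher in R6/2 x DREAM+/- against DREAM+/- too. The mean of the muscle list ran from -0.215 to 0.005 in R6/2 x DREAM+/-, -0.135 to 0.011 in DREAM+/-, 0.025 to 0.087 in R6/2 and -0.063 to 0.097 in wild type. Of 3 brown fat markers only Dio2, which astrocytes also express, was bright enough to be tested, and it was lower in R6/2 against wild type (-0.69, adjusted p = 3.75e-05). The part of these markers in the change of Cox6a2 was not tested.

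In complex V, the ATP synthase, 2 of 17 genes passed. Atp5b, the catalytic beta subunit, had 13.51, 13.51, 13.49 and 13.47 in R6/2, against 13.31, 13.39, 13.41 and 13.40 in wild type (0.12, adjusted p = 0.0411). The alpha subunit Atp5a1 differed by a like amount, 0.12, and did not pass (adjusted p = 0.0752). Atp5g1 is 1 of 3 genes that encode the same mature c subunit, which forms the rotating ring in the membrane. It had 11.76, 11.88, 11.78 and 11.85 in R6/2, against 11.63, 11.61, 11.64 and 11.57 in wild type, without overlap, a change of 0.21 ± 0.04 (SE, adjusted p = 0.00248). Its partners Atp5g2 and Atp5g3 differed by 0.07 (adjusted p = 0.285) and 0.07 (adjusted p = 0.230).

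**Figure D2:**
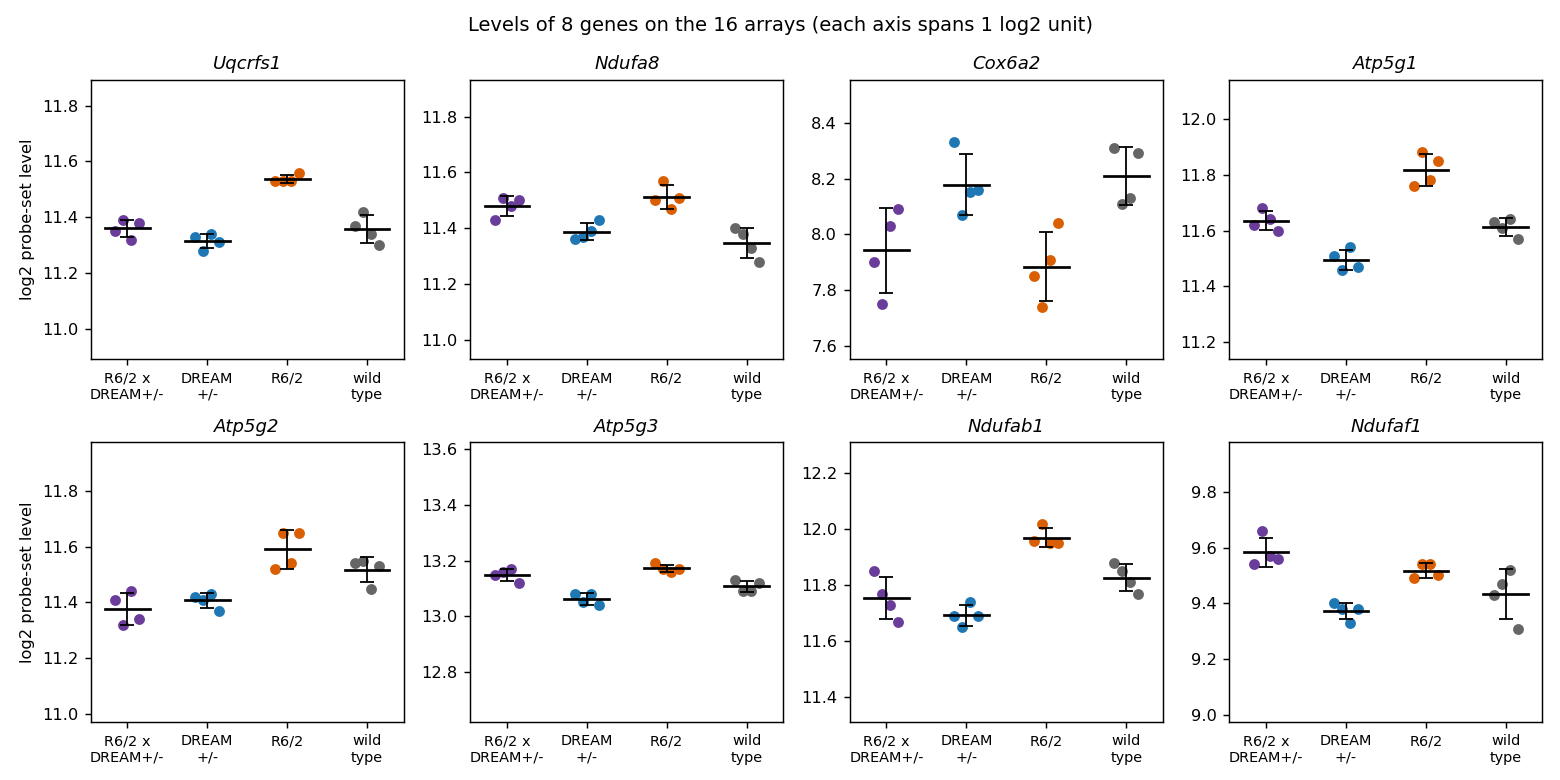
Log2 level of 8 genes on the 16 arrays (vertical axis, each spanning 1 log2 unit) by genotype (horizontal axis); points are arrays, bars are means and whiskers are SD over 4 arrays. Uqcrfs1 and Atp5g1 are highest in R6/2, Cox6a2 is low in both R6/2 genotypes, and Atp5g2 is low in both DREAM+/- genotypes.

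The same transgene was read on the other background in R6/2 x DREAM+/- against DREAM+/-, which shares no array with the comparison above. Of the 91 members, 5 passed as higher and 0 as lower (5.50%), while 14.9% of all genes passed, 7.07% as higher and 7.87% as lower. The median over members was 0.02, as was that over all genes (0.02). The 5 were Ndufa3, Uqcrh, Cox7a2l, Atp5g1 and Ndufaf1, 1 each from complexes I, III, IV and V and the assembly factors. Complex II, with a median of 0.09 over 4 genes, had none by the brightest probe sets. Fitted by probe set, a second one of Sdha (mean 11.61) passed with 0.175 (adjusted p = 0.0156), one of Ndufs4 with -0.28 (adjusted p = 0.00151) and one of Cox6c, a general subunit of complex IV, with 0.24 (adjusted p = 0.0350), while the brightest probe set of each did not pass. The count was 1 without R6/2 x DREAM+/- replicate 2 or without any 1 of the 4 DREAM+/- arrays. It was 2 without R6/2 x DREAM+/- replicate 1. It was 3 without R6/2 x DREAM+/- replicate 3, R6/2 replicate 1, 3 or 4, or wild-type replicate 1. Across fits without 1 array, 10% to 17.7% of all genes passed.

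Ndufaf1, a factor needed to assemble the membrane arm of complex I, had 9.54, 9.66, 9.57 and 9.56 in R6/2 x DREAM+/-, against 9.40, 9.38, 9.33 and 9.38 in DREAM+/-. All 4 arrays of the cross lay above all DREAM+/- arrays, with a change of 0.21 ± 0.05 (SE, adjusted p = 0.00771), or 15.7%. On the wild-type background the same gene differed by 0.09 (adjusted p = 0.220). The difference between these changes did not pass, as no interaction did.

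Uqcrh, the hinge protein of complex III, had 12.33, 12.52, 12.42 and 12.38 in R6/2 x DREAM+/-, against 12.25, 12.21, 12.25 and 12.28 in DREAM+/- (0.17, adjusted p = 0.0378). Cox7a2l, which helps join complexes III and IV into supercomplexes, had 11.47, 11.52, 11.57 and 11.45 in R6/2 x DREAM+/-, against 11.38, 11.35, 11.39 and 11.36 in DREAM+/- (0.13, adjusted p = 0.0456). Neither pair of groups overlapped.

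Ndufa3 and Atp5g1 were the 2 members that passed as higher in both R6/2 comparisons. On the DREAM+/- background, the call of Ndufa3 held under only 5 of 26 alternative settings. That of Atp5g1 held under 13. Ndufa3 had 12.78, 12.79, 12.81 and 12.77 in R6/2 x DREAM+/-, against 12.69, 12.68, 12.67 and 12.62 in DREAM+/- (0.12, adjusted p = 0.0480). Atp5g1 had 11.62, 11.68, 11.64 and 11.60 in R6/2 x DREAM+/-, against 11.51, 11.46, 11.54 and 11.47 in DREAM+/- (0.14, adjusted p = 0.0396). Cox6a2 had 7.90, 7.75, 8.03 and 8.09 in R6/2 x DREAM+/-, against 8.33, 8.07, 8.15 and 8.16 in DREAM+/-. These groups overlapped by 1 array each, and its change of -0.24 did not pass (adjusted p = 0.0626).

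Averaged over both backgrounds, the R6/2 effect passed for 21 members as higher and 2 as lower, while 19.9% of all genes passed as higher and 15.5% as lower, 35.4% in all. Beside the genes above, it took in Ndufb6, a membrane arm subunit (0.17, adjusted p = 0.0280), Ndufb8 (0.10, adjusted p = 0.0129), the X-linked Ndufb11 (0.10, adjusted p = 0.0442), Cox8c, a testis form of subunit 8 (0.15, adjusted p = 0.0340), Cox6a1, Cox6b1 and Atp5g3. The 2 lower members were Cox6a2 (-0.28, adjusted p = 0.00116) and Ndufs3 (-0.10, adjusted p = 0.0331). The count was 12 after the shift to a common median, given without the share of all genes, and 13 without DREAM+/- replicate 2. Across fits without 1 array, 30.8% to 37.1% of all genes passed.

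**Figure D3:**
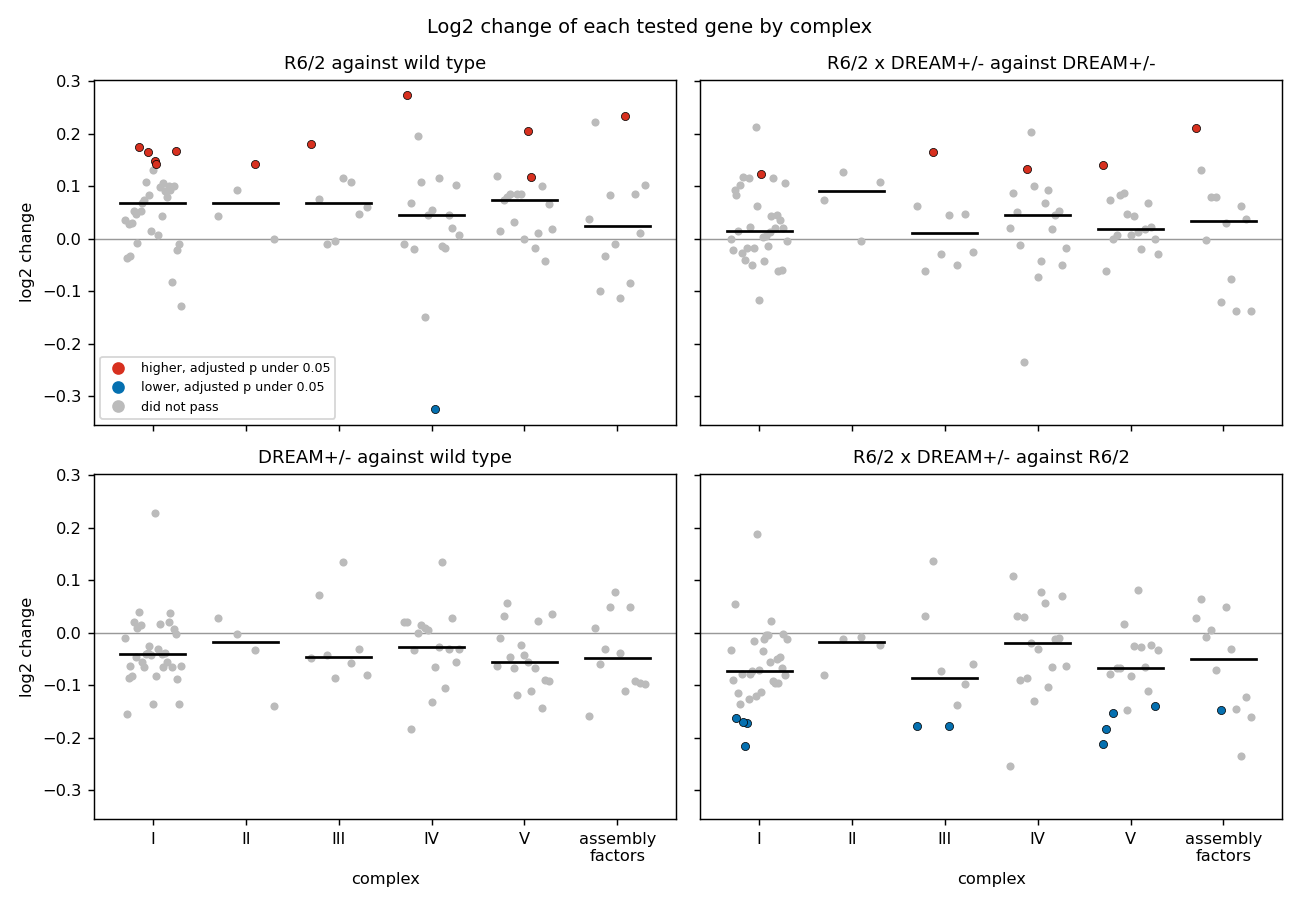
Log2 change (vertical axis) of each of the 91 tested genes by complex (horizontal axis) in the 4 comparisons; colours mark genes that passed in limma, adjusted p under 0.05, and bars are medians. The 12 coloured genes in R6/2 against wild type are mostly above 0, and the 11 in R6/2 x DREAM+/- against R6/2 are all below it.

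The loss of 1 DREAM copy alone was read in DREAM+/- against wild type. No member passed in limma, while 3.68% of all genes did, 1.60% as higher and 2.08% as lower. At an unadjusted limma p under 0.05 there were 2 members higher and 9 lower, while 850 and 1539 of all 13011 genes were so. The median over members was -0.04, against -0.03 over all genes, with 27 positive and 63 negative signs. All genes had 5186 positive and 7752 negative signs. Under the other settings tried, the count ran up to 3 members, given without the share of all genes, and it was 1 without R6/2 replicate 3. Across fits without 1 array, 2.15% to 5.4% of all genes passed.

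The nearest to the threshold was Atp5j2, the f subunit in the membrane part of the ATP synthase, with 12.57, 12.57, 12.56 and 12.49 in DREAM+/-, against 12.72, 12.70, 12.68 and 12.66 in wild type. The groups did not overlap, and the change was -0.14 (adjusted p = 0.0919). A dim probe set of the gene (mean 6.51) went the other way and passed at probe-set level, with 0.58 (adjusted p = 0.00147). The largest change of a member was that of Ndufa12, an accessory subunit of complex I fitted late in assembly, with 12.65, 12.51, 12.57 and 12.54 in DREAM+/-, against 12.39, 12.39, 12.21 and 12.37 in wild type (0.23, 95% interval 0.07 to 0.38, adjusted p = 0.101).

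Other probe sets of members that did not pass by their brightest probe set passed in this comparison. Among probe sets above the filter they were, beside that of Atp5j2, a second one of Cox5a (mean 12.52, -0.22, adjusted p = 0.0176), one of Atp5pb, the b subunit of the stator stalk (mean 11.79, -0.22, adjusted p = 0.0243), and a dim one of Atp5g2 (mean 6.56, -0.48, adjusted p = 0.0173). Of 48 members with at least 2 probe sets above the filter, these 4 were called on some of them only. Under the filter, a dim probe set of Atp5g1 passed with 0.73 (adjusted p = 0.00859), while its brightest differed by -0.12 and did not pass. By the brightest probe sets, Cox5a differed by -0.13, Atp5pb by -0.09 and Atp5g2 by -0.11, and none of these passed.

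R6/2 x DREAM+/- against R6/2 asks what the loss of 1 DREAM copy did in the disease model. Of the 91 members, 0 passed as higher and 11 as lower (12.1%), while 14.0% of all genes passed, 5.33% as higher and 8.65% as lower. Complex I had 4 of them, complex III 2, complex V 4 and the assembly factors 1, and complexes II and IV had none by the brightest probe sets. Fitted by probe set, 6 of 48 genes were called on some of their probe sets only. Cox5a passed on a second one (-0.19, adjusted p = 0.0189), as did Atp5pb (-0.34, adjusted p = 0.000781), Atp5d, the delta subunit of the ATP synthase (-0.24, adjusted p = 0.0331), and Sdha on a dim one (mean 7.30) in the other direction (0.27, adjusted p = 0.0471). The median over members was -0.07, against -0.03 over all genes, with 17 positive and 74 negative signs. All genes had 5215 positive and 7760 negative signs. Core subunits as grouped here leave out Uqcrc1 and Uqcrc2, the core proteins of complex III, which were counted as accessory. All 19 tested core subunits in this sense had a negative sign, and 5 of them passed. Members were read on the same arrays, so their signs are not separate results. The count was 4 without R6/2 x DREAM+/- replicate 4 or R6/2 replicate 2, 5 without R6/2 x DREAM+/- replicate 2 or R6/2 replicate 4, 6 without R6/2 x DREAM+/- replicate 1, and 7 without R6/2 replicate 1 or DREAM+/- replicate 2. Across fits without 1 array, 8.2% to 20.8% of all genes passed. The count of members was 4 after the shift to a common median, again given without the share of all genes.

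The lowest p belonged to Ndufab1, the acyl carrier protein, with 11.85, 11.77, 11.73 and 11.67 in R6/2 x DREAM+/-, against 11.96, 12.02, 11.95 and 11.95 in R6/2. The groups did not overlap, and the change was -0.22 ± 0.05 (SE, adjusted p = 0.00837). A dim probe set above the filter (mean 7.35) went the other way at probe-set level without passing (0.55, adjusted p = 0.0877). Another (mean 7.13) read -0.13 and did not pass either (adjusted p = 0.207). Ndufs3, a core subunit of the peripheral arm, had 11.62, 11.58, 11.66 and 11.64 in R6/2 x DREAM+/-, against 11.70, 11.84, 11.80 and 11.84 in R6/2 (-0.17, adjusted p = 0.0308). Wild type had 11.81, 11.95, 11.81 and 11.94 for Ndufs3, a change in R6/2 against wild type that did not pass (-0.08, adjusted p = 0.235).

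Ndufs8, an iron-sulfur subunit next to the ubiquinone site, had 12.25, 12.11, 12.30 and 12.20 in R6/2 x DREAM+/-, against 12.38, 12.41, 12.29 and 12.43 in R6/2. These groups overlapped by 1 array (-0.16, adjusted p = 0.0471). Ndufv3, a small subunit of the electron input module, had 11.91, 11.68, 11.88 and 11.75 in R6/2 x DREAM+/-, against 11.97, 12.03, 11.93 and 11.98 in R6/2 (-0.17, adjusted p = 0.0492). Ndufaf3, which acts early in the assembly of the ubiquinone-reducing module, had 10.25, 10.27, 10.31 and 10.22 in R6/2 x DREAM+/-, against 10.34, 10.43, 10.40 and 10.47 in R6/2 (-0.15, adjusted p = 0.0316). For Ndufv3 and Ndufaf3 the groups did not overlap.

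In complex III, Uqcrfs1 had 11.35, 11.39, 11.32 and 11.38 in R6/2 x DREAM+/-, against the 11.53 to 11.56 of R6/2. The arrays of the cross lay below every R6/2 array, at a change of -0.18 ± 0.04 (SE, adjusted p = 0.0115). Uqcrq, a small subunit that touches the ubiquinone site, had 11.39, 11.35, 11.51 and 11.34 in R6/2 x DREAM+/-, against 11.51, 11.60, 11.53 and 11.66 in R6/2 (-0.18, adjusted p = 0.0320), where replicate 3 of the crossed group equalled the lowest R6/2 array. Uqcrc2 went the other way without passing (0.14, adjusted p = 0.0926).

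The c ring of the ATP synthase had 2 of its 3 genes among the 4 lower members of complex V. Atp5g2 had 11.41, 11.32, 11.44 and 11.34 in R6/2 x DREAM+/-, against 11.52, 11.65, 11.54 and 11.65 in R6/2. The groups did not overlap, and the change was -0.21 ± 0.05 (SE, adjusted p = 0.00913), or -13.7%. Its dim probe set (mean 6.56) passed in the same direction at probe-set level, with -0.65 (adjusted p = 0.00131). Atp5g1 had 11.62, 11.68, 11.64 and 11.60 in R6/2 x DREAM+/-, against 11.76, 11.88, 11.78 and 11.85 in R6/2 (-0.18, adjusted p = 0.0129), and Atp5g3 differed by -0.02 (adjusted p = 0.734).

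A second, dim Atp5g1 probe set, whose mean of 5.53 is under the brightness filter, moved against the bright one in all 4 comparisons. Tested at probe-set level it read -0.47 in R6/2 against wild type (adjusted p = 0.0346), -0.30 in R6/2 x DREAM+/- against DREAM+/- (adjusted p = 0.251), 0.73 in DREAM+/- against wild type (adjusted p = 0.00859) and 0.90 in R6/2 x DREAM+/- against R6/2 (adjusted p = 0.00115). In R6/2 against wild type and in R6/2 x DREAM+/- against R6/2 both probe sets passed, in opposite directions. Averaging all probe sets of a gene turned the sign of Atp5g1 in each comparison where it had passed, to -0.13 in R6/2 against wild type, -0.08 in R6/2 x DREAM+/- against DREAM+/- and 0.36 in R6/2 x DREAM+/- against R6/2. The same averaging turned Ndufa10 to -0.02 in R6/2 against wild type, and Ndufab1 and Atp5j2 to 0.04 and 0.05 in R6/2 x DREAM+/- against R6/2. It also brought Ndufab1 to 0.02 in R6/2 against wild type, Ndufa3 to 0.07 in R6/2 x DREAM+/- against DREAM+/- and Uqcrq to -0.07 in R6/2 x DREAM+/- against R6/2, and none of these 3 passed then.

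The other 2 lower members of complex V belong to its stalk and membrane part. Atp5j, coupling factor 6 of the stator stalk, had 11.88, 11.77, 11.82 and 11.76 in R6/2 x DREAM+/-, against 11.95, 11.96, 11.91 and 12.02 in R6/2 (-0.15, adjusted p = 0.0378). Atp5j2 had 12.57, 12.56, 12.65 and 12.48 in R6/2 x DREAM+/-, against 12.69, 12.73, 12.67 and 12.73 in R6/2 (-0.14, adjusted p = 0.0471), while its dim probe set read 0.41 at probe-set level (adjusted p = 0.0102). Both genes were free of overlap on their brightest probe set. The catalytic subunits did not pass, with -0.07 for Atp5b (adjusted p = 0.273) and -0.08 for Atp5a1 (adjusted p = 0.257).

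Some large changes did not pass. Cox6b2 had 7.10, 7.01, 7.01 and 7.19 in R6/2 x DREAM+/-, against 7.25, 7.55, 7.38 and 7.14 in R6/2 (-0.25, adjusted p = 0.0698), the largest size among members in this comparison. Ndufaf6, a complex I assembly factor, differed by -0.24 (adjusted p = 0.0730). Ndufa12 had 12.63, 12.43, 12.43 and 12.53 in R6/2 x DREAM+/-, against 12.40, 12.41, 12.07 and 12.39 in R6/2 (0.19, adjusted p = 0.0991), where every array of the cross lay above every R6/2 array. Cox6a2 differed by 0.06 (adjusted p = 0.676).

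**Figure D4:**
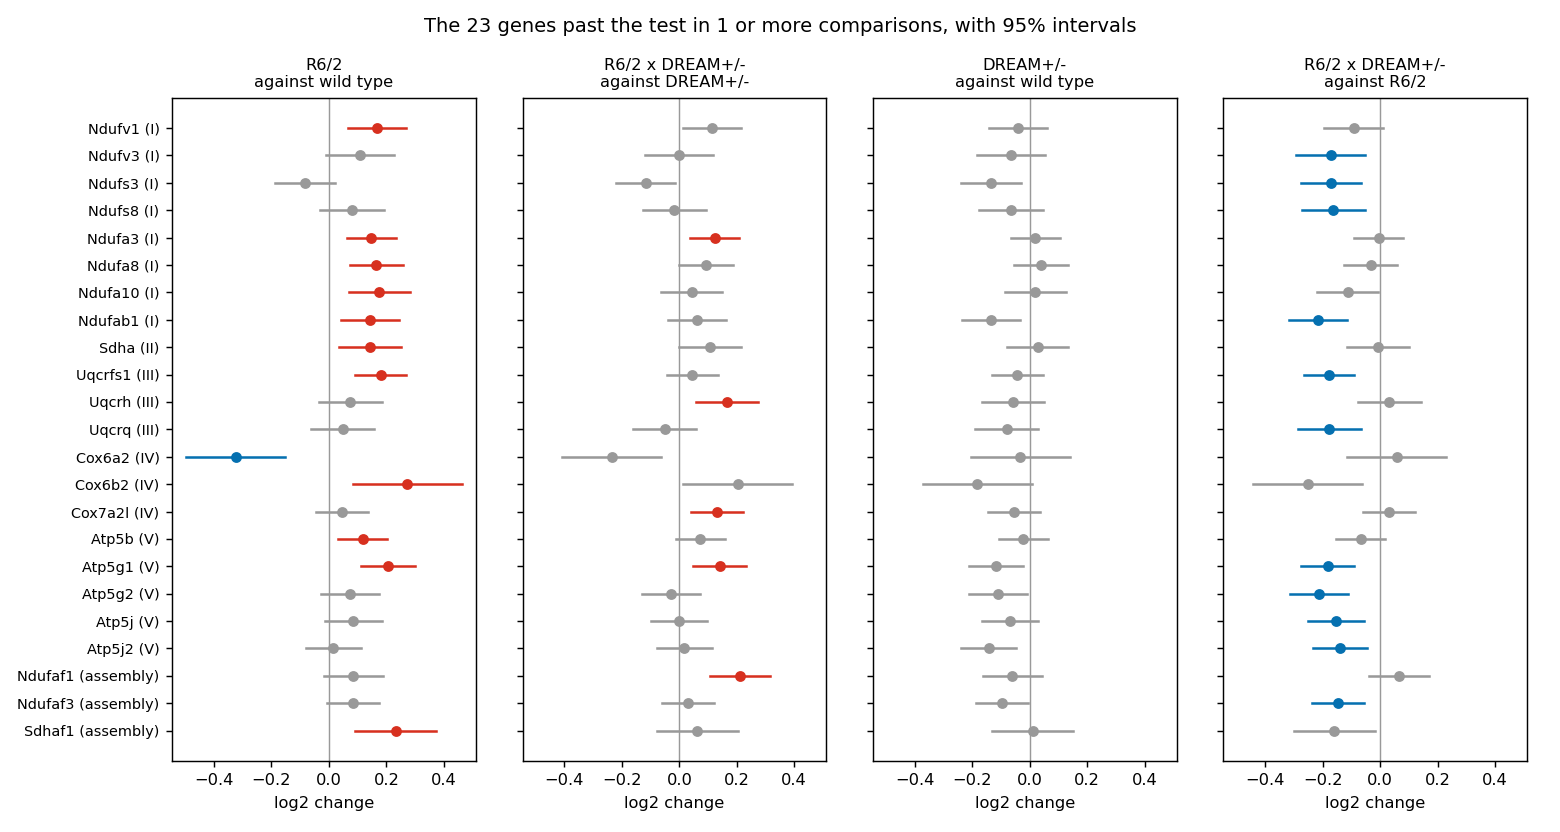
Log2 change with 95% interval (horizontal axis) of the 23 genes that passed in at least 1 comparison, in rows by complex, with 1 panel per comparison; red marks a gene that passed as higher, blue as lower and grey one that did not pass. The panels of R6/2 against wild type and R6/2 x DREAM+/- against R6/2 share the R6/2 arrays, and 3 genes (Ndufab1, Uqcrfs1 and Atp5g1) are red in the first and blue in the last.

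In all, 23 members passed in at least 1 of the 4 comparisons and 68 in none. Ndufab1, Uqcrfs1 and Atp5g1 passed as higher in R6/2 against wild type and as lower in R6/2 x DREAM+/- against R6/2. Both comparisons use the same R6/2 arrays, so that an array set high in R6/2 moves both, and the overlap is no result of its own. For Uqcrfs1 the means were 11.36 ± 0.03 in R6/2 x DREAM+/-, 11.32 ± 0.03 in DREAM+/-, 11.54 ± 0.02 in R6/2 and 11.36 ± 0.05 in wild type (SD, n = 4 each). The interaction, which asks whether the R6/2 effect differed between backgrounds, passed for 0 of 91 members and for 0 of 13011 genes in limma. At an unadjusted limma p under 0.05 there were 0 positive members and 1 negative, while 474 and 424 of all genes were so. That member was Uqcrfs1, with an interaction of -0.14 (limma adjusted p = 0.710).

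Averaged over R6/2 status, the DREAM+/- effect passed for 2 members as higher and 17 as lower, while 7.51% of all genes passed as higher and 14.6% as lower, 22.1% in all. Ndufab1 had the lowest p (-0.175, adjusted p = 0.00183), followed by Atp5g1 (-0.15, adjusted p = 0.00307), Atp5g2 (-0.16, adjusted p = 0.00335) and Atp5j2 (-0.14, adjusted p = 0.00524). Complex V had 6 of the 17, complex I 4, complex III 3, complex IV 2 and the assembly factors 2. The 2 higher members were Ndufa12 (0.21, adjusted p = 0.0101) and Uqcrc2, a core protein of complex III (0.14, adjusted p = 0.0162). The count was 11 without DREAM+/- replicate 2 or replicate 4.

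Counted by overlap in place of a test, 22 members had all 4 R6/2 arrays above all wild-type arrays and 1 had them below, against 13.4% and 11.8% of all genes. For R6/2 x DREAM+/- against R6/2, 1 member lay wholly above and 17 wholly below, against 6.24% and 9.59% of all genes. The counts for R6/2 x DREAM+/- against DREAM+/- were 11 above and 2 below, against 10.4% and 8.46%, and in DREAM+/- against wild type 2 above and 12 below, against 4.57% and 7.94%.

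The factors that build and feed the chain were counted from lists of textbook genes outside the symbol rule. Of 25 assembly factors and other subunits of complexes III and IV, 8 were higher and 1 lower in R6/2 against wild type, where 13.5% of all genes were higher and 11.9% lower. Cox16, an assembly factor of complex IV, changed by 0.36 (adjusted p = 0.000236), Higd2a, another, by 0.27 (adjusted p = 0.000214) and Cyc1, the cytochrome c1 of complex III, by 0.25 (adjusted p = 0.00144), while Ttc19, a factor for complex III, fell by 0.34 (adjusted p = 4.73e-05). In R6/2 x DREAM+/- against DREAM+/-, 4 were higher and 1 lower (all genes 7.07% and 7.87%), in DREAM+/- against wild type 0 and 1 (1.60% and 2.08%), and in R6/2 x DREAM+/- against R6/2 1 and 3 (5.33% and 8.65%). Cox18, which inserts a mitochondrially encoded subunit of complex IV into the membrane, fell by 0.46 in DREAM+/- against wild type (adjusted p = 0.000140) and by 0.64 in R6/2 x DREAM+/- against R6/2 (adjusted p = 3.24e-06). Nothing particular to the list is read from its counts.

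Of 19 genes of the citric acid cycle and pyruvate dehydrogenase, 3 were higher and 0 lower in R6/2 against wild type (all genes 13.5% and 11.9%), led by Pdha1 (0.17, adjusted p = 0.00683). In R6/2 x DREAM+/- against R6/2, 0 were higher and 5 lower (all genes 5.33% and 8.65%), led by Ogdh, a subunit of the 2-oxoglutarate dehydrogenase (-0.36, adjusted p = 0.00504), and followed by Suclg2 and Dlat. Of 15 regulators of mitochondrial biogenesis, 0 were higher and 3 lower in R6/2 against wild type, against the same shares of all genes. They were the coactivators Ppargc1b (-0.33, adjusted p = 0.00137) and Ppargc1a (-0.225, adjusted p = 0.0207) and Gabpb1, a subunit of GABP (-0.34, adjusted p = 0.00565). Ppargc1b and Ppargc1a were also lower in R6/2 x DREAM+/- against DREAM+/-, with adjusted p = 0.00219 and 0.0332.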

How the data were processed

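RNA of whole striatum from 16 animals or preparations, 4 for each of 4 genotypes, was hybridised to Affymetrix mouse expression arrays. Log2 values of 45101 probe sets stand in the table that the authors deposited; the submitters' processing notes name RMA and affy, with no version or role. RMA as usually run gives every array the same distribution, which hides a shift common to most genes. Whether replicates are separate animals is not stated, and p-values measure the spread between these samples. Values ran from 3.34 to 14.71, array medians from 6.54 to 6.58 and correlations between replicates from 0.98994 to 0.99735. The 4 arrays per group limit precision: the median 95% interval of a member's change reached 0.11 to either side.

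Probe sets were named by the platform annotation; 34945 had exactly 1 symbol. Entrez identifiers tied all 94 members to RefSeq genes, with 0 changes of symbol. The brightest probe set by mean stood for a gene, and genes whose mean was below 5.944, the 40th percentile over probe sets, were not tested. One limma fit (version 3.58.1, R 4.3.3, lmFit and eBayes) over all 16 arrays gave the tests, with 1 mean per genotype, tested on simulated data. Members and gene lists were chosen with earlier results of these data known, so no test over a list was made. Named were members that passed, the 3 largest changes per comparison, tissue isoforms, a fixed list of main subunits and members whose probe sets disagree. Groups and replicate numbers came from sample titles. Correlations of deviations between samples of the same number ran from -0.413 to 0.287, with 11 of 24 pairs over 0.1, so the numbers were not taken as pairs. Alternatives changed the scaling, filter, probe sets, variance model, array weights, samples and replicate block.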

Additional observations from a re-analysis of the deposited data

Results flagged for a closer look

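Of 204 groups of 4 arrays checked for the named genes, 12 held an array whose gap to its nearest neighbour exceeded Dixon's 95% critical value, and chance alone gives about 1 in 20 groups. In R6/2, replicate 2 stood at 12.02 for Ndufab1 (others 11.95 to 11.96), replicate 4 at 11.56 for Uqcrfs1 (others 11.53), replicate 1 at 12.91 for Cox5a (others 12.83 to 12.84) and replicate 3 at 12.07 for Ndufa12 (others 12.39 to 12.41). In wild type, replicate 3 stood at 12.21 for Ndufa12 (others 12.37 to 12.39) and at 10.90 for Sdhd (others 10.84). In R6/2 x DREAM+/-, replicate 1 stood at 13.39 for Atp5b (others 13.44), and replicate 3 at 13.99 for Cox6a1 (others 13.92 to 13.93) and 13.17 for Cox7a2 (others 13.02 to 13.04). In DREAM+/-, replicate 3 stood at 11.49 for Uqcrq (others 11.43 to 11.44), replicate 2 at 13.37 for Atp5b (others 13.35) and replicate 4 at 12.49 for Atp5j2 (others 12.56 to 12.57). Values are log2 levels, and several of these gaps are under 0.1.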

How the results depend on the processing

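Over 26 alternatives, Cox6a2, Ndufa8 and Uqcrfs1 passed throughout in R6/2 against wild type, Ndufaf1 in R6/2 x DREAM+/- against DREAM+/- and Atp5g2 in R6/2 x DREAM+/- against R6/2. Each of the other calls was lost under at least 1 alternative. In R6/2 x DREAM+/- against DREAM+/-, Ndufa3 held under only 5 and Cox7a2l under 8. In R6/2 against wild type, Sdha held under 8. In R6/2 x DREAM+/- against R6/2, Atp5j2 held under 7, Ndufs8 under 8 and Ndufv3 under 9. Averaging all probe sets of a gene reversed Atp5g1 (-0.13 in R6/2 against wild type, -0.079 in R6/2 x DREAM+/- against DREAM+/-, 0.36 in R6/2 x DREAM+/- against R6/2), Ndufa10 (-0.0175 in R6/2 against wild type), and Atp5j2 and Ndufab1 (0.051 and 0.043 in R6/2 x DREAM+/- against R6/2). Such averaging could not change the values of Ndufa8, Uqcrfs1 and Ndufaf1, which have 1 probe set each.

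Numbers of members past the test moved as follows. Shares of all genes are not set beside them, so nothing particular to members is read from these counts. Shifting arrays to a common median gave 6 in R6/2 against wild type (12 as reported), 1 in R6/2 x DREAM+/- against DREAM+/- (5), 4 in R6/2 x DREAM+/- against R6/2 (11) and 12 for the averaged R6/2 effect (23). In R6/2 x DREAM+/- against DREAM+/-, the count was 1 without a filter, 3 with mean probe sets, 1 with only the 2 groups fitted and 3 without R6/2 replicate 1 and R6/2 x DREAM+/- replicate 3 together. In DREAM+/- against wild type (0), it was 3 with mean probe sets and 1 each with a trended robust variance, array weights and only the 2 groups fitted. In R6/2 x DREAM+/- against R6/2, it was 2 with only the 2 groups fitted and 7 with the replicate block. With the replicate block, counts were 10 in R6/2 against wild type, 22 for the averaged R6/2 effect and 15 for the averaged DREAM+/- effect. The numbers share only a label, and the causes were not tested.

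Leaving out 1 array at a time gave 8 to 13 in R6/2 against wild type, 1 to 5 in R6/2 x DREAM+/- against DREAM+/-, 0 to 1 in DREAM+/- against wild type, 4 to 16 in R6/2 x DREAM+/- against R6/2, 0 to 0 for the interaction, 13 to 23 for the averaged R6/2 effect and 11 to 21 for the averaged DREAM+/- effect. In the same order, the shares of all genes that passed ran from 20.7% to 28.6%, 10% to 17.7%, 2.15% to 5.4% and 8.2% to 20.8%. For the interaction and the 2 averaged effects they ran from 0% to 0.0154%, 30.8% to 37.1% and 17.1% to 29.1%. Nothing particular to members is read from these counts.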

Other observations

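Genes that move metabolites and energy across the mitochondrial membrane were counted as well. Over all genes, 13.5% were higher and 11.9% lower in R6/2 against wild type, 7.07% and 7.87% in R6/2 x DREAM+/- against DREAM+/-, 1.60% and 2.08% in DREAM+/- against wild type and 5.33% and 8.65% in R6/2 x DREAM+/- against R6/2, and nothing particular to a list is read from the counts that follow. Of 14 transporters and shuttles, 3 were higher and 3 lower in R6/2 against wild type. Slc25a11, the 2-oxoglutarate carrier, was higher (0.23, adjusted p = 0.000897), as were the porins Vdac2 and Vdac3, and the creatine kinases Ckb (-0.22, adjusted p = 0.00584) and Ckmt1 (-0.34, adjusted p = 0.0202) were lower. Ckmt1, the mitochondrial creatine kinase, was lower in DREAM+/- against wild type too (-0.40, adjusted p = 0.0361). For R6/2 x DREAM+/- against R6/2, 0 were higher and 2 lower, Slc25a11 (-0.20, adjusted p = 0.00658) and the pyruvate carrier Mpc1 (-0.19, adjusted p = 0.0324).

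Of 30 mitochondrial ribosomal proteins, 1 was higher and 0 lower in R6/2 against wild type, and 1 was higher and 6 lower in R6/2 x DREAM+/- against R6/2, led by Mrpl4 (-0.25, adjusted p = 0.00449). Of 15 carriers and partners, 1 was higher and 2 lower in that comparison, with the ubiquinone synthesis genes Coq7 at 0.27 (adjusted p = 0.00369), Coq5 at -0.33 (adjusted p = 0.00412) and Coq9 at -0.25 (adjusted p = 0.00542). Of 15 glycolytic genes, 2 were higher and 1 lower in both R6/2 comparisons, with Aldoc, an aldolase of astrocytes, lower in R6/2 against wild type (-0.26, adjusted p = 0.000958) and in R6/2 x DREAM+/- against DREAM+/- (-0.175, adjusted p = 0.0239). Of 8 complex I assembly factors outside the symbol rule, 2 were lower in DREAM+/- against wild type and 2 in R6/2 x DREAM+/- against R6/2, Nubpl (-0.35 and -0.26) and Ecsit (-0.20 and -0.27) in each.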
